A study of Mus musculus with 2 samples.

Results

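The genes described here are 46 transcripts of the dividing cell, 19 of S phase and 27 of mitosis, out of 32285 genes in the annotation of a single-cell RNA-seq experiment. They were taken by name from a list drawn up with earlier results of these data known, with no threshold on their values, and all 46 had at least 1 UMI (unique molecular identifier, a tag that marks 1 captured RNA molecule). Dectin-1, encoded by Clec7a, is a receptor for fungal and other β-glucans on myeloid cells, and the experiment asked how its absence changes the myeloid cells of intestinal tumours. Both groups were C57BL6/J mice, 26 weeks old by the label, in which tumours were raised with azoxymethane (AOM), a carcinogen, followed by 1% dextran sodium sulfate (DSS), which injures the colon lining, in 3 cycles, and colorectal polyps were taken 16 weeks after AOM. One library came from 5 pooled wild-type (WT) mice and the other from 4 pooled mice lacking Clec7a in all tissues (KO), in both cases from cells stained for CD11b and CD11c and sorted. With 1 library per genotype no difference between genotypes has a replicate check, no p-value is given, and the intervals below (95%, exact) cover counting error only.

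A cell that prepares to divide loads the MCM helicase on its origins, raises its supply of nucleotides, copies its DNA in S phase behind the sliding clamp PCNA, and then condenses, aligns and separates its chromosomes in mitosis. Most of these genes are silent or low in resting cells and are switched on in 2 waves, the earlier by E2F factors and the later by the complex that binds the CHR element, often with NF-Y at nearby CCAAT boxes. In myeloid tissue, mature neutrophils do not divide, monocytes seldom do, and tissue macrophages, conventional dendritic cells and activated lymphocytes can.

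The promoter windows below are shown because the S-phase and mitotic genes, which the counts treat apart, also differ in the letters before their start sites. RefSeq windows on GRCm38.p6, from 250 bases before the start of the gene to 50 after it, were at hand for 38 of the 46 genes. Capitals mark every exact match, on either strand, to an E2F site (TTTCCCGC, TTTGGCGC, TTTCGCGC or TTTGCCGC), to the CHR (TTTGAA or TTCGAA), or to the CCAAT box, and neighbouring matches may overlap. An E2F site was found in 8 of 16 S-phase genes and in 1 of 22 mitotic genes (4.55%), against 2.61% of all 27025 genes with a window. A CHR match was found in 3 of 16 S-phase genes (18.8%) and in 17 of 22 mitotic genes (77.3%), against 21.7% of all genes, and a CCAAT box in 68.8%, 86.4% and 41.1%, respectively. A match is a description of the letters and not evidence of a bound factor. Mcm6 (chr1:128359656-128359955, minus strand), a helicase subunit, Pclaf (chr9:65890073-65890372, plus strand), a PCNA-binding protein, and Pcna itself (chr2:132253131-132253430, minus strand), whose window holds no such E2F letters, stand for the S-phase genes. Cdk1 (chr10:69352863-69353162, minus strand), the mitotic kinase and the mitotic gene with an E2F site, Top2a (chr11:99024140-99024439, minus strand), which untangles DNA, and Ube2c (chr2:164769679-164769978, plus strand), a ubiquitin carrier of the anaphase-promoting complex, stand for the mitotic genes. All 6 are written 5′ to 3′ on the strand of the gene.
Mcm6: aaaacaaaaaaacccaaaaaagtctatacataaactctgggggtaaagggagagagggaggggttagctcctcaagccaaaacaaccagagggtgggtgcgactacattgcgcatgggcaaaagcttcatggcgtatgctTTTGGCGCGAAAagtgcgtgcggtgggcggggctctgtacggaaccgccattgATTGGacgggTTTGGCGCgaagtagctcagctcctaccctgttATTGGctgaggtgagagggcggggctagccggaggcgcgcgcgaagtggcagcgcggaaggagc
Pclaf: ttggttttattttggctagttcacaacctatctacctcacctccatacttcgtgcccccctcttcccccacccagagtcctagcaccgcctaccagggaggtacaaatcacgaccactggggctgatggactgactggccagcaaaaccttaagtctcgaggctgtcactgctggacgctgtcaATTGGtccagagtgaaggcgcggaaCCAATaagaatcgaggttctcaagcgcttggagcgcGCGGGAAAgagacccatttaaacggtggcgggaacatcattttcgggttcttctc
Pcna: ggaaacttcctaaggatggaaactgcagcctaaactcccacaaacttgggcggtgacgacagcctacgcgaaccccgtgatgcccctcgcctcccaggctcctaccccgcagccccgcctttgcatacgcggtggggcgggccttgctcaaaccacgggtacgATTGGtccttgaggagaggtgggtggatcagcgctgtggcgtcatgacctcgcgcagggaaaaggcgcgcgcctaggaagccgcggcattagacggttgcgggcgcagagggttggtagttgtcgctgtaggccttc
Cdk1: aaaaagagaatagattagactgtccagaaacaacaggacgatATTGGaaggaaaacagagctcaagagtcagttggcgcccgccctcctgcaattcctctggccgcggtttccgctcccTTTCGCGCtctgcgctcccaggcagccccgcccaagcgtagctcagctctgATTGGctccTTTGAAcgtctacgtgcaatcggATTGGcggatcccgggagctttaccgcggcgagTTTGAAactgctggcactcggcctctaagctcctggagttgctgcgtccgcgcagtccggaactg
Top2a: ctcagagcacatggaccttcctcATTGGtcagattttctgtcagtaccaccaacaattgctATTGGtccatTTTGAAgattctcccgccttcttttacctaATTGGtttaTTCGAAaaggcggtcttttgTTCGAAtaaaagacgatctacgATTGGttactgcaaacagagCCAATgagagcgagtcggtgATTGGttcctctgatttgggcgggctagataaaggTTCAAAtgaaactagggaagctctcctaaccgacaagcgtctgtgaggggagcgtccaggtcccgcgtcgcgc
Ube2c: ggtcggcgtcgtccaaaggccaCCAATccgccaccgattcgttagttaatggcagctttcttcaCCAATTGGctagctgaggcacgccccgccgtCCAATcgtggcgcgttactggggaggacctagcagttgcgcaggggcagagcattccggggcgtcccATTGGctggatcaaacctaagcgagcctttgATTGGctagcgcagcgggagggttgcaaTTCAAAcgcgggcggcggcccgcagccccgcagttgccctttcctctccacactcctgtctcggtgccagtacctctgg

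The filter of the study's methods, a gene number of 200 to 4000 and no more than 5% of UMIs from mitochondrial genes, left 2696 of 3467 WT barcodes (12283285 UMIs, median 3412.5 per cell) and 1999 of 3080 KO barcodes (7559096 UMIs, median 2671). Between the libraries 17 barcodes recurred, 6 of them among kept cells, and of 82 levels, ratios and counts recomputed without those, 0 moved beyond the counting interval or, for counts, by 1.5 times. Classes were drawn by clustering without the cell cycle genes and named from marker genes. They were neutrophil-like (25.1% of WT and 20.2% of KO cells), monocyte-like (27.3% and 25.2%), macrophage-like (20.1% and 15.5%), dendritic cell-like (8.46% and 20.4%) and T or NK cell-like cells (2.49% and 6.05%), besides small B or plasma, epithelial and mast cell-like clusters and unnamed clusters 7 and 8. The T or NK cell-like cluster was led by Trbc1, Foxp3 and Cd3g, although CD11b and CD11c were the sort markers. A level is given in UMIs per 1000000 UMIs (CPM) over the same cells, so it is a share of captured RNA and is not corrected for transcript length.

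A few genes carried most of the signal. Pcna, Hmgb2, Cenpa, Stmn1 and Mki67 held 69.7% of the 25718 UMIs of the list, and Pcna alone held 9311, or 66.9% of those of the S-phase genes. Pcna was at 465 CPM in WT and 477 CPM in KO cells, and Hmgb2, a chromatin-bending protein, at 139 and 167. Cenpa, the centromeric histone, was at 127 and 122, and Stmn1, a tubulin-binding protein, at 117 and 133. The next most abundant, Mki67, a coat protein of mitotic chromosomes, was at 32.0 and 44.9 CPM. Every other gene of the list was below 40 CPM in either library, as the plot of single-gene levels shows. Sums are therefore given with these 5 genes and for the other 18 S-phase and 23 mitotic genes, a division made after their counts were seen.

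**Figure D1:**
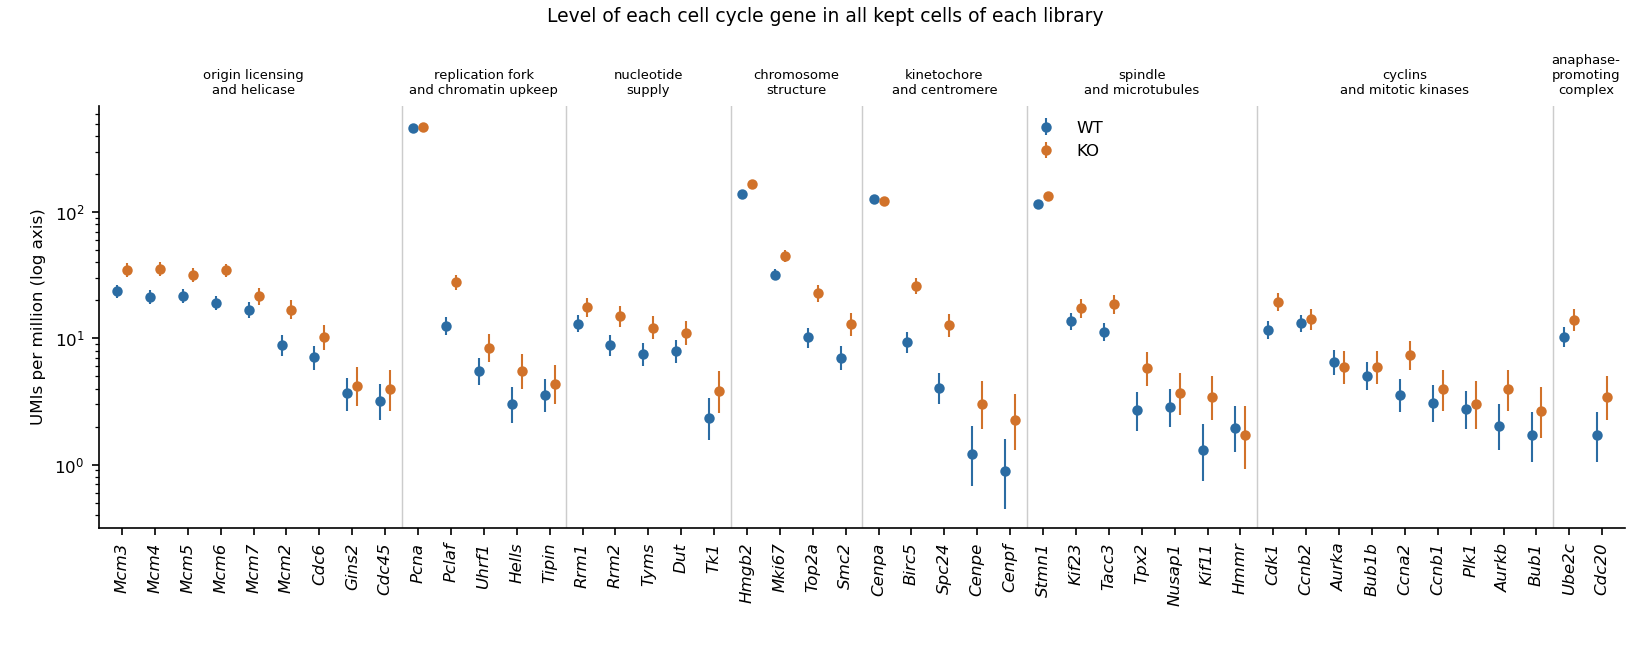
Level of each of the 46 genes in all kept cells of the WT (blue) and KO (orange) library, in CPM on a log axis, grouped by role, with exact 95% counting intervals. Pcna sits at 465 and 477 CPM in the 2 libraries, and most of the less abundant genes lie higher in KO.

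Of the 5 abundant genes, those besides Stmn1 were among the least tied to other mitotic genes. To see which genes mark the same cells, cells with UMIs of at least 3 other mitotic genes out of the 23 were set against cells with none of those genes, always leaving out the gene in question. Ccna2, the S- and M-phase cyclin, was 208-fold higher in such cells (63.3 against 0.305 CPM), Spc24, a kinetochore subunit, 192-fold (87.6 against 0.456 CPM) and Pclaf 178-fold (218 against 1.22 CPM). These genes were close to absent wherever other mitotic genes were absent. Ccnb1, the mitotic cyclin, was 90.8-fold higher, Rrm2, the cycling subunit of ribonucleotide reductase, 62.7-fold, Ube2c 61.9-fold and Top2a 56.7-fold. The MCM subunits of the helicase spread from 5.60-fold for Mcm4 to 16.0-fold for Mcm5. Pcna was only 1.56-fold higher (707 against 454 CPM), Cenpa 1.92-fold, Cdc6, which loads the helicase, 2.49-fold, Mki67 3.15-fold, Hmgb2 4.22-fold and Kif23, a motor of cell separation, 4.23-fold. Pcna and Cenpa thus differed least between cells with and without other mitotic transcripts.

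Among classes with at least 100 cells, the T or NK cell-like cluster was highest in both lists. Over both libraries, the T or NK cell-like cluster had 1263 CPM of the 18 S-phase genes and 1154 CPM of the 23 mitotic genes. Next of these classes came dendritic cell-like cells with 324 and 215 CPM and macrophage-like cells with 266 and 178 CPM, then monocyte-like cells with 120 and 67.1 CPM and neutrophil-like cells with 52.5 and 76.7 CPM. Of the small classes, 29 epithelial cell-like cells had 1027 and 708 CPM, 21 mast cell or basophil-like cells 570 and 580 CPM, and 32 B or plasma cell-like cells 460 and 241 CPM. Over both libraries the monocyte-like and neutrophil-like classes changed places between the lists, so that neutrophil-like cells were lowest in S-phase genes and monocyte-like cells in mitotic genes. In the KO library alone, neutrophil-like cells were below monocyte-like cells in both lists. Within the classes the signal was uneven. Among macrophage-like cells, cluster 4, led by Igf1, had 348 and 246 CPM, whereas cluster 5, led by Pgf and Adamdec1, had 140 and 72.2 CPM. Among dendritic cell-like cells, cluster 9, led by Clec9a, Itgae and Xcr1, the genes of cross-presenting dendritic cells, had 482 and 360 CPM, whereas cluster 6, led by Fscn1 and with Ccl22 and Il12b, genes of mature migrating dendritic cells, had 177 and 80.1 CPM.

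Most single genes were highest in the same cluster, while the cluster with the lowest level differed between genes. Clusters with at least 100 cells were compared. The T or NK cell-like cluster had the highest level for 18 of 19 S-phase and 24 of 27 mitotic genes. Among them were Mcm6 at 228 CPM, Ube2c and Rrm2 at 131 CPM each and Hmgb2 at 635 CPM. The share of all genes highest in this cluster was not computed. The cluster held only 175097 WT and 237316 KO UMIs. Low levels there, such as Hmmr at 9.70 CPM and Tk1 at 12.1 CPM, thus rest on few molecules. The count also takes in Cdc20, Cenpe, Cenpf, Bub1, Hmmr and Kif11, which had too few UMIs for the ratios by gene. Tyms, which makes thymidylate, was highest in macrophage-like cluster 4 at 20.5 CPM. Spc24 at 36.8 CPM and Mki67 at 101 CPM were highest in dendritic cell-like cluster 9. Cenpa was highest in unnamed cluster 8, led by Wnt11, Arap2 and S100a4, at 336 CPM, a cluster in which Mki67 was at its lowest (14.5 CPM).

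**Figure D2:**
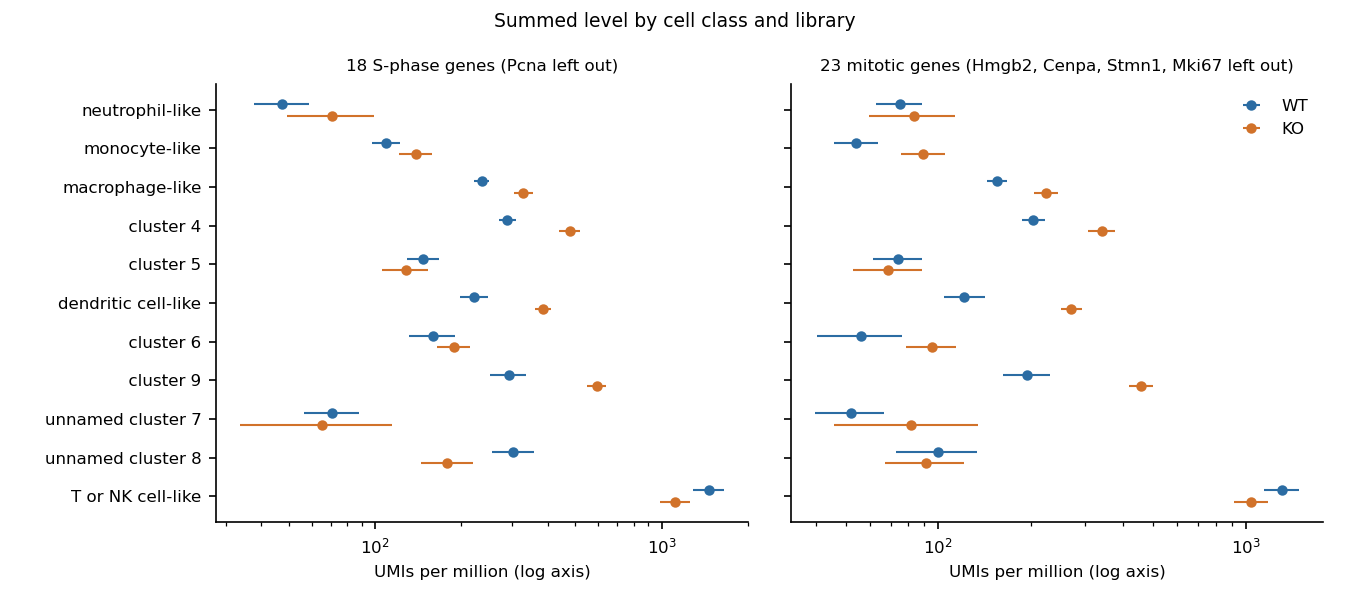
Summed level of the 18 less abundant S-phase genes (left) and the 23 less abundant mitotic genes (right) by cell class or cluster, in CPM on a log axis, WT in blue and KO in orange, with exact 95% counting intervals. The T or NK cell-like cells lie highest in both panels and are the lower of the pair in KO, while clusters 4 and 9 lie higher in KO.

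Over all kept cells both lists were higher in the KO library. The 19 S-phase genes summed to 655 CPM in WT and 776 CPM in KO, a log2 ratio of KO over WT of 0.25 (0.20 to 0.29), and the 27 mitotic genes to 542 and 681 CPM, a log2 ratio of 0.33 (0.28 to 0.38). Without the 5 abundant genes the gap was wider. The 18 S-phase genes were at 190 CPM in WT and 300 CPM in KO (0.66, 0.57 to 0.74) and the 23 mitotic genes at 128 and 215 CPM (0.74, 0.64 to 0.85). TMM scaling, which takes most genes as the reference, lowered each of these log2 ratios by 0.17. The mix of clusters moved with the levels, since dendritic and T or NK cell-like cells were a larger share of the KO library. With the levels of the WT clusters weighted by the UMI shares of the KO clusters, the log2 ratio was 0.36 for the 18 S-phase and 0.30 for the 23 mitotic genes. With the levels of the KO clusters at the UMI shares of WT it was 0.35 and 0.45. UMI shares follow depth as well as cell number. Dendritic cell-like cells were 8.46% of WT and 20.4% of KO cells, but 11.3% and 30.3% of UMIs. Neither the UMI shares nor the levels within clusters alone gave the whole difference, and its cause was not tested.

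Of the 46 genes, 40 had at least 50 UMIs over both libraries, all 19 of the S-phase and 21 of the mitotic list. Those below it were Cdc20, Cenpe, Cenpf, Bub1, Hmmr and Kif11, with 28 to 47 UMIs each. The log2 ratio was above 0 for 38 of the 40, where it was for 64.5% of all genes tested. Its interval lay above 0 for 28 of the 40, against 33.7% of all genes, and below 0 for 0, against 15.6%. The median of the 40 was 0.54, against 0.14 over all 9856 genes with that many UMIs. Counting a gene as past the fold when it was at least 2-fold apart with a pseudocount of 0.5 UMI, 6 of the 40 were higher in KO, where 3.42% of all genes were, and 0 were lower, where 1.85% of all genes were. Aurka, a spindle kinase, at 6.51 and 5.95 CPM, and Cenpa were the pair with a ratio below 0, and their intervals spanned 0. The plot of ratios by gene shows the spread.

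By role, the genes of kinetochore and centromere without Cenpa stood farthest apart, at 15.6 CPM in WT and 44.1 CPM in KO (log2 ratio 1.5, 1.24 to 1.77). Spc24 was at 4.07 CPM in WT and 12.7 CPM in KO (1.64, 1.13 to 2.16), and Birc5, or survivin, of the chromosomal passenger complex, at 9.36 and 26.1 CPM (1.48, 1.14 to 1.82). Both genes together gave most UMIs of that role. Chromosome structure genes without Hmgb2 and Mki67 were at 17.2 and 35.7 CPM (1.06), with Top2a at 10.2 and 22.8 CPM (1.16, 0.82 to 1.5) and the condensin subunit Smc2 at 7.0 and 13 CPM (0.89, 0.46 to 1.32). Spindle genes without Stmn1 were at 33.8 and 50.8 CPM (0.59), with Tpx2, an activator of Aurora A, at 2.69 and 5.82 CPM (1.12), Tacc3, a microtubule crosslinker, at 11.3 and 18.7 CPM (0.72) and Kif23 at 13.7 and 17.5 CPM (0.35). This role thus held 1 gene past the fold and others short of it. Cyclins and mitotic kinases were least apart, at 49.7 and 66.7 CPM (0.43, 0.25 to 0.60). Within this role Ccna2 was at 3.58 and 7.41 CPM (1.05) and Cdk1 at 11.6 and 19.4 CPM (0.74), whereas Ccnb2 was at 13.3 and 14.3 CPM (0.11, −0.26 to 0.47). The genes of one role were therefore not uniform.

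Among the S-phase genes the spread was narrower. The 9 genes of origin licensing and helicase summed to 126 CPM in WT and 194 CPM in KO (0.63, 0.52 to 0.73). Their ratios ran from 0.21 for Gins2 to 0.93 for Mcm2 (8.87 and 16.9 CPM), and the core subunits Mcm3 to Mcm6 lay between 0.56 and 0.85. Fork and chromatin genes without Pcna were at 24.7 and 46.2 CPM (0.90, 0.67 to 1.13), led by Pclaf at 12.6 and 27.8 CPM (1.14, 0.83 to 1.45). Hells, a remodeller needed for DNA methylation, was at 3.01 and 5.56 CPM (0.88) and its partner in that task Uhrf1 at 5.54 and 8.47 CPM (0.61). Genes of nucleotide supply were at 39.6 and 59.7 CPM (0.59, 0.40 to 0.78), with Rrm2 at 0.77, Tyms and Tk1, the thymidine kinase, at 0.70 each and Rrm1, the constant subunit of the reductase, at 0.42. Pcna differed by 0.04 (−0.02 to 0.10).

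**Figure D3:**
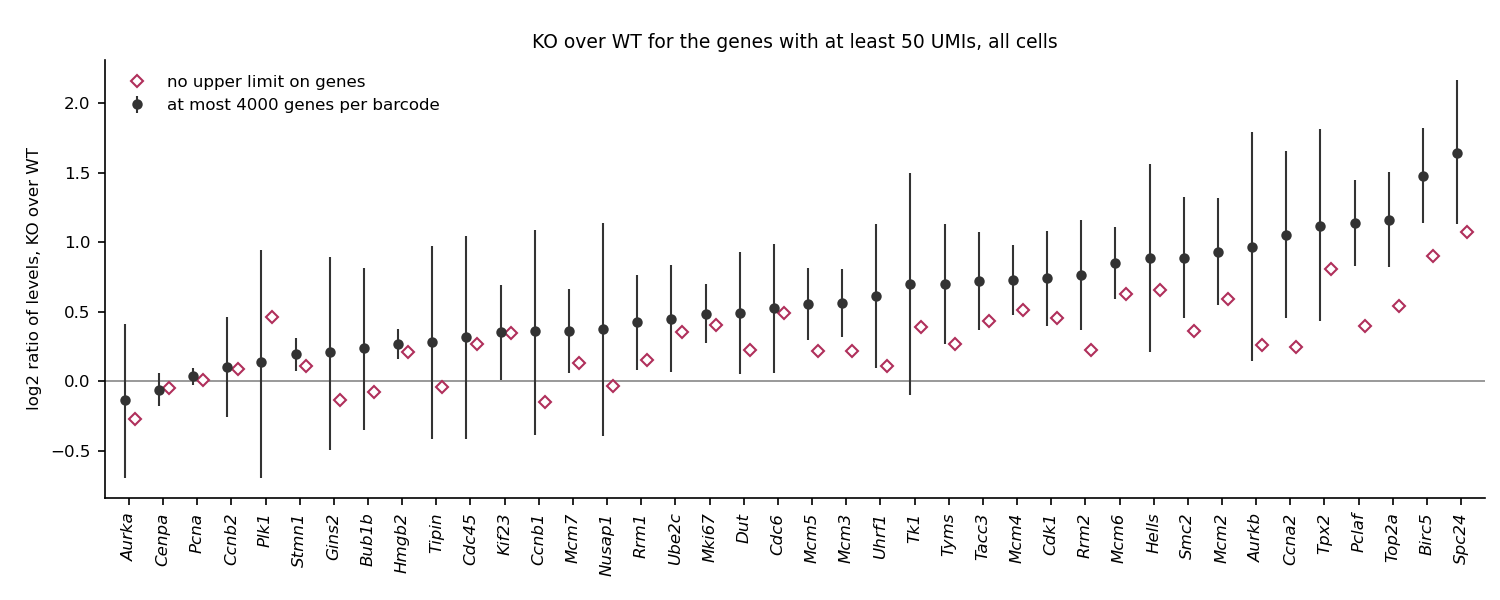
Log2 ratio of KO over WT for the 40 genes with at least 50 UMIs over both libraries, ordered by the ratio, with exact 95% counting intervals. Filled circles are cells with at most 4000 detected genes, and open diamonds the same ratio without that limit. The filled circles run from −0.13 to 1.64 with 38 of the 40 above 0, and most diamonds lie below their circle.

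The study used Pclaf, Spc24 and Top2a to describe a dendritic cell cluster in these same samples, so their ratios are not independent of that choice. Other cell cycle genes, from lists fixed for comparison, had medians above the 0.14 of all genes. Of 19 genes of G1 and the restriction point 17 were tested, with a median of 0.25, and Rbl1, a pocket protein, and Ccnd2, a D-type cyclin, were past the fold. Ccnd2 was at 68.4 CPM in WT and 151 CPM in KO. Of 23 other S-phase genes 18 were tested, with a median of 0.23. Of 32 other genes of G2 and mitosis 17 were tested, with a median of 0.44, close to the 0.45 of the 21 mitotic genes above. Spc25, Cdca3 and Ndc80 were past the fold. In the order of the 3 lists, 2, 1 and 3 genes were 2-fold higher, where 3.42% of all genes were. None was 2-fold lower, where 1.85% were. The ratio was above 0 for 14 of 17, 13 of 18 and 12 of 17, where it was for 64.5% of all genes. Ckap2l, the most abundant of the G2 and mitosis list, was lower in KO, at 167 and 104 CPM (−0.69, −0.81 to −0.57). Spc25 and Ndc80 encode partners of Spc24 in the Ndc80 complex, and Ndc80 was at 1.06 and 4.89 CPM.

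In dendritic cell-like cells the 18 S-phase genes were at 222 CPM in WT and 386 CPM in KO (0.80, 0.61 to 0.99) and the 23 mitotic genes at 122 and 271 CPM (1.16, 0.91 to 1.41). Of 21 genes with at least 50 UMIs there, 19 were above 0, as were 53.5% of all genes, and 5 were 2-fold higher in KO, namely Stmn1, Spc24, Pclaf, Top2a and Birc5, where 1.25% of all genes were, and 0 were 2-fold lower, where 1.15% were. The median was 0.79, against 0.02 over all genes tested in this class. The study described a dendritic cell cluster of these samples by Spc24, Pclaf and Top2a. This count and median are thus not independent of that choice. Birc5 had 7 UMIs in WT and 67 in KO (5.04 and 29.3 CPM, log2 ratio 2.54, 1.42 to 3.91), and Spc24 8 and 65 (5.76 and 28.4 CPM, 2.30, 1.24 to 3.57). Both ratios rest on fewer than 10 WT molecules. Pclaf was at 10.8 and 41.1 CPM (1.93), Top2a at 16.6 and 37.2 CPM (1.17) and Stmn1 at 53.3 and 111 CPM (1.07), while Mki67 at 112 and 94.0 CPM and Cenpa at 173 and 156 CPM had ratios below 0 with intervals that spanned it. The ratios of Mki67 and Top2a, both often read as signs of division, thus lay on opposite sides of 0 in this class.

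Of the clusters with at least 100 cells, cluster 9, the Clec9a cells, had the largest difference. There the 18 S-phase genes were at 292 and 595 CPM (1.03, 0.79 to 1.27) and the 23 mitotic genes at 195 and 458 CPM (1.23, 0.95 to 1.52). Stmn1 was at 66.9 and 174 CPM, Mcm5 at 32.0 and 77.5 CPM and Hmgb2 at 173 and 331 CPM. In cluster 6 the ratios were 0.25 (−0.08 to 0.59) for the S-phase and 0.76 (0.24 to 1.32) for the mitotic genes, on 41 WT and 112 KO UMIs of the latter. Dendritic cell-like cells of the WT library were deeper than those of KO, with a median of 5617.5 against 4749.5 UMIs. Among those with fewer than 3 of the 23 genes the neutrophil markers, 10 of 10 detected, were at 1781 CPM in WT and 957 CPM in KO. Their part in the result was not tested. Under 9 other settings of the cells kept or of the clustering, this class gave 0.46 to 0.53 for the 18 S-phase genes. Without the limit on detected genes the Wnt11 cluster, which then had 3 dendritic cell markers, was counted in this class. The class was larger under all 9 settings, with 343 to 389 WT and 551 to 855 KO cells, against 228 and 408 as reported. The part of this growth in the ratios was not tested.

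In macrophage-like cells the 18 S-phase genes were at 236 CPM in WT and 329 CPM in KO (0.48, 0.34 to 0.62) and the 23 mitotic genes at 155 and 225 CPM (0.54, 0.36 to 0.71). These ratios were −0.10 and 0.12 without the limit on detected genes, 0.10 and 0.043 with up to 10% mitochondrial UMIs, and −0.098 and −0.034 with no filter on cells. Of 27 genes with at least 50 UMIs, 22 were above 0, as were 49.2% of all genes, with a median of 0.34 against −0.0012 over all genes tested, and 2 were past the fold, Mcm2 (12.3 and 25.5 CPM, 1.05) and Top2a (10.5 and 24.6 CPM, 1.23), where 0.546% of all genes were. Of the 27, 0 were 2-fold lower, where 1.01% were. Cenpa was at 177 CPM in WT and 112 CPM in KO (−0.66, −0.87 to −0.45), against the direction of the list. The difference lay in cluster 4, with 0.72 (0.57 to 0.88) for the S-phase and 0.74 (0.55 to 0.92) for the mitotic genes. Cluster 5 gave −0.20 (−0.53 to 0.13) and −0.10 (−0.57 to 0.35). Median depth was 7949 UMIs in WT and 6371 in KO macrophage-like cells. Among those with fewer than 3 of the 23 genes the macrophage markers, all 10 detected, were at 14902 CPM in WT and 21169 CPM in KO, the neutrophil markers at 2227 and 1581 CPM, and their part was not tested.

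T or NK cell-like cells went the other way. The S-phase genes were at 1462 CPM in 67 WT cells and 1117 CPM in 121 KO cells (−0.39, −0.64 to −0.14) and the mitotic genes at 1308 and 1041 CPM (−0.33, −0.59 to −0.06). Of 8 genes with at least 50 UMIs 7 were below 0, as were 48.2% of all genes, with Hmgb2 at 754 and 548 CPM (−0.46, −0.82 to −0.10). Even so, the KO level of these cells was above that of any other class with at least 100 cells. The neutrophil markers, 10 of 10 detected, were at 7522 CPM in the WT and 2100 CPM in the KO cells of this cluster with fewer than 3 mitotic genes, and their part was not tested.

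In monocyte-like cells the S-phase genes were at 109 and 139 CPM (0.35, 0.09 to 0.60) and the mitotic genes at 54.1 and 89.5 CPM (0.73, 0.39 to 1.06). Single genes of the whole list did not share this direction. Of 10 with at least 50 UMIs there, 4 were above 0 and 6 below, with a median of −0.04. Of the 5 mitotic genes among them 4 were below 0, 2 of these with intervals below 0, and 1 had its interval above 0. Birc5 had 1 WT and 16 KO UMIs in monocyte-like cells with none of the other less abundant mitotic genes. In neutrophil-like cells the S-phase genes were at 47.4 and 70.9 CPM (0.58, −0.04 to 1.17) and the mitotic genes at 74.8 and 83.4 CPM (0.16, −0.39 to 0.68). The neutrophil-like class was mostly cluster 1 in WT (495 of 676 cells) and mostly cluster 3 in KO (320 of 403 cells). In the Wnt11 cluster 8, S-phase genes were lower in KO, at 304 and 179 CPM (−0.76, −1.16 to −0.37), and mitotic genes at 99.8 and 91.3 CPM (−0.13, −0.75 to 0.49). What signal the neutrophil-like cells had was mostly of origin licensing, cyclin and spindle genes, with 35.4, 25.7 and 38.8 CPM in WT, while the kinetochore genes without Cenpa gave 2.28 CPM.

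Summed levels do not say how many cells were in cycle. Of 4695 kept cells 160, or 3.41% (2.91 to 3.97), had UMIs of at least 3 of the 23 mitotic genes. These cells held 63.4% of the UMIs of those genes and 47.7% of the UMIs of the 18 S-phase genes, but 7.41% of all UMIs. They were deeper than the rest, with a median of 9446 against 3085 UMIs, and the boundary is a cut in a range, with 140 cells at exactly 2 genes and 39 at exactly 3. By class, 72 were macrophage-like, 65 of them in cluster 4, 46 were dendritic cell-like, 39 of them in cluster 9, and 16 were T or NK cell-like. Among 1079 neutrophil-like cells there was 1.

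The share of such cells differed between libraries. It was 2.71% (2.13 to 3.39) in WT and 4.35% (3.50 to 5.34) in KO, 12% (8.47 to 16.4) and 21.7% (15.2 to 29.3) in cluster 4, 9.20% (4.05 to 17.3) and 18.8% (13.1 to 25.6) in cluster 9, and 11.9% (5.30 to 22.2) and 6.61% (2.90 to 12.6) in T or NK cell-like cells. In clusters 4 and 9 the KO share was the higher and in the T or NK cell-like cluster the lower, with intervals that overlapped in each. With the barcodes above 4000 genes added back, 28 WT and 15 KO barcodes with at least 3 of these genes returned, and the share was 3.69% (3.02 to 4.47) in WT and 5.05% (4.14 to 6.10) in KO over all cells. In macrophage-like cells it was then 10.8% (8.31 to 13.6) and 14.2% (10.7 to 18.5), against 7.02% and 11% with the limit. Within these cells the 23 mitotic genes were at 1297 CPM in WT and 1451 CPM in KO (0.16, 0.03 to 0.29). Among the macrophage-like they were at 1074 and 1152 CPM (0.10, −0.10 to 0.30) and among the dendritic cell-like at 1392 and 1335 CPM (−0.06, −0.38 to 0.27). Among the T or NK cell-like, 8 in each library, they were at 3733 and 5193 CPM (0.48, 0.20 to 0.76). The same 23 genes chose the cells, so these levels are in part set by the cut. The 18 S-phase genes, not used for it, were at 1417 and 1559 CPM (0.14, 0.02 to 0.26). In cells with none of the 23 genes the S-phase genes were still at 108 CPM in WT and 137 CPM in KO (0.34, 0.20 to 0.49). By class this ratio was 0.06 in macrophage-like, −0.08 in dendritic cell-like and 0.19 in T or NK cell-like cells. It was 0.28 in monocyte-like and 0.38 in neutrophil-like cells, and each of these class intervals spanned 0. The unnamed clusters together gave 0.52 (0.09 to 0.95), but cluster 7 alone gave 0.08 and cluster 8 −0.06, with intervals that spanned 0. The part of the class mix in the ratio over all cells was not tested.

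Because depth differed, each cell was also thinned to 1000 UMIs, which left out 186 WT and 307 KO cells below that depth. The share of cells with at least 2 of the 18 S-phase or at least 2 of the 23 mitotic genes was then 2.59% (2.0 to 3.29) in WT and 4.96% (3.98 to 6.11) in KO. In cluster 4 it was 7.77% and 14.7%, in cluster 9 9.20% and 13.8%, in T or NK cell-like cells 25% and 20.9%, and in monocyte-like cells 0.577% and 1.48%, each with overlapping intervals. Neutrophil-like cells, which should lack division, gave 0.166% (1 of 603 WT cells) and 0.461% (1 of 217 KO cells). Their median depths were 2613 and 1429 UMIs before thinning, against 3591.5 and 3304.5 over all cells. Cluster 5 gave 0.866% and 1.35%, and cluster 6 gave 0 of 136 WT cells, which allows up to 2.21%, and 1.75% in KO. Their intervals overlapped those of the neutrophil-like cells. Before thinning, where depth also counts, 1.65% (0.67 to 3.37) of cluster 5 cells had at least 3 of the 23 mitotic genes. Cluster 6 then had 1.82% (0.74 to 3.72) and neutrophil-like cells 0.0927% (0.0023 to 0.515), over both libraries. With all 19 S-phase genes the share was 5.66% in WT and 8.04% in KO, and with all 27 mitotic genes 5.74% and 8.57%, while neutrophil-like cells reached 1.33% and 3.23% for the latter. Unthinned, the mitotic share over all cells was the lower one in KO.

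Counting the S-phase and mitotic genes apart, 73 of the 4202 thinned cells had at least 2 S-phase genes only, 42 at least 2 mitotic genes only, and 34 both. In WT these were 33, 16 and 16 cells and in KO 40, 26 and 18. In cluster 4 there were 11, 4 and 7 WT cells and 7, 8 and 6 KO cells, and in cluster 9 3, 4 and 1 WT cells and 9, 7 and 6 KO cells. The counts were too few to tell one phase from the other between libraries, and the plot of phases shows them for the main clusters.

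**Figure D4:**
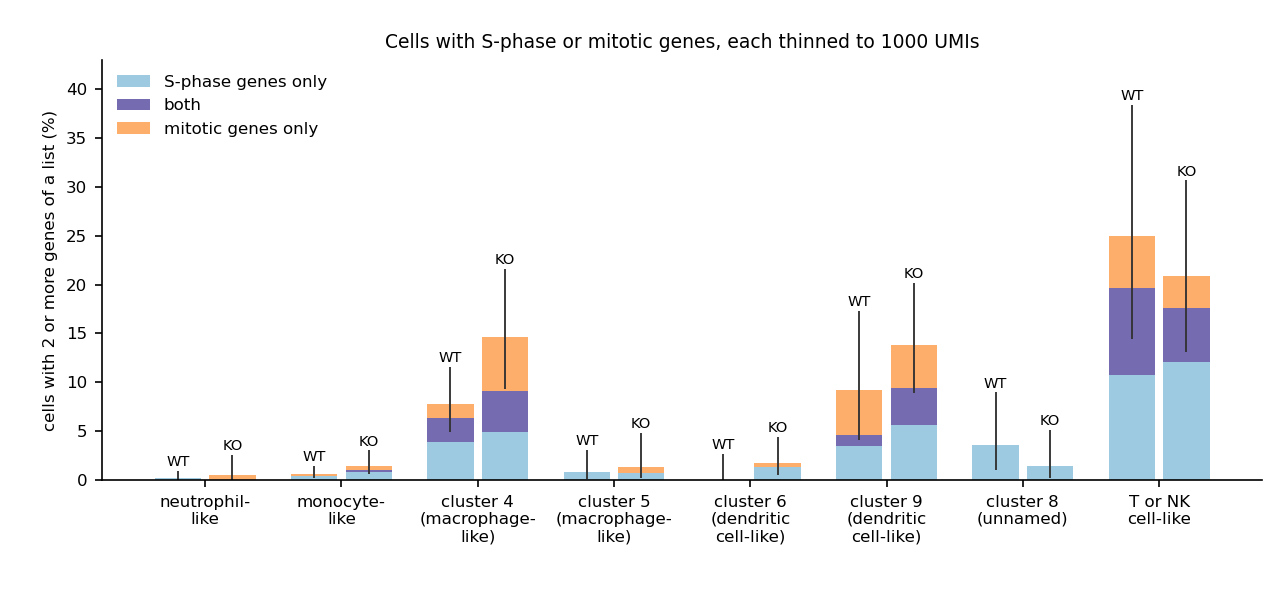
Percent of cells thinned to 1000 UMIs that had at least 2 of the 18 S-phase genes only, at least 2 of the 23 mitotic genes only, or both, by class or cluster and library, stacked, with the exact 95% interval of the whole bar. Cluster 4 reaches 7.77% in WT and 14.7% in KO, and neutrophil-like cells stay below 0.5% in both.

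The limit of 4000 detected genes bears on these genes more than on most. It set aside 61 barcodes with at most 5% mitochondrial UMIs, 41 of WT and 20 of KO, of which 53 were macrophage-like and 43 had at least 3 of the 23 mitotic genes. They were 1.28% of barcodes and 6.52% of UMIs. They held 28.1% of the UMIs of the 18 S-phase and 28.7% of those of the 23 mitotic genes, more in WT (35.9% and 36.3%) than in KO (17.6% and 19.5%). Their level of the 18 S-phase genes was 1379 CPM in WT and 1116 CPM in KO, and of the 23 mitotic genes 944 and 904 CPM. Their macrophage-like barcodes had 13542 CPM of the macrophage markers, 10 of 10 detected, with 3.37 CPM of T or NK cell, 423 CPM of dendritic cell and 1217 CPM of neutrophil markers. In kept macrophage-like cells with fewer than 3 mitotic genes the same lists gave 16850, 12.2, 496 and 2026 CPM. As a share of UMIs, the T or NK cell, dendritic cell and neutrophil markers were thus not higher in the macrophage-like barcodes above the limit. Barcodes above the limit were deeper, with a median of 21594 UMIs over all classes, against 6967 in those kept macrophage-like cells. Shares of these lists cannot show several cells of the same class under a barcode. Whether barcodes above the limit held several cells was not tested.

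With those barcodes added back, the ratio of the S-phase genes over all cells was 0.32 and that of the mitotic genes 0.43, and a single gene of the list was past the fold, against 6 with the limit. With the limit 3.42% of all genes were at least 2-fold higher in KO, and without it that share was not computed. Within bins of detected genes the KO library had the higher level from over 1000 genes up to the limit. At over 3000 and up to 4000 genes the 23 mitotic genes were at 248 CPM in WT and 465 CPM in KO. They were at 119 and 210 CPM at over 2000 and up to 3000 genes, and at 75.2 and 147 CPM at over 1000 and up to 2000 genes. At 200 to 1000 genes they were at 108 and 106 CPM, while the S-phase genes were at 118 CPM (101 to 138) in WT and 175 CPM (149 to 203) in KO. Another 716 WT and 1047 KO barcodes had over 5% mitochondrial UMIs and at most 4000 genes. In those the mitotic genes were at 340 CPM in WT and 302 CPM in KO, and the S-phase genes at 356 and 323 CPM, so there the WT library was the higher.

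**Figure D5:**
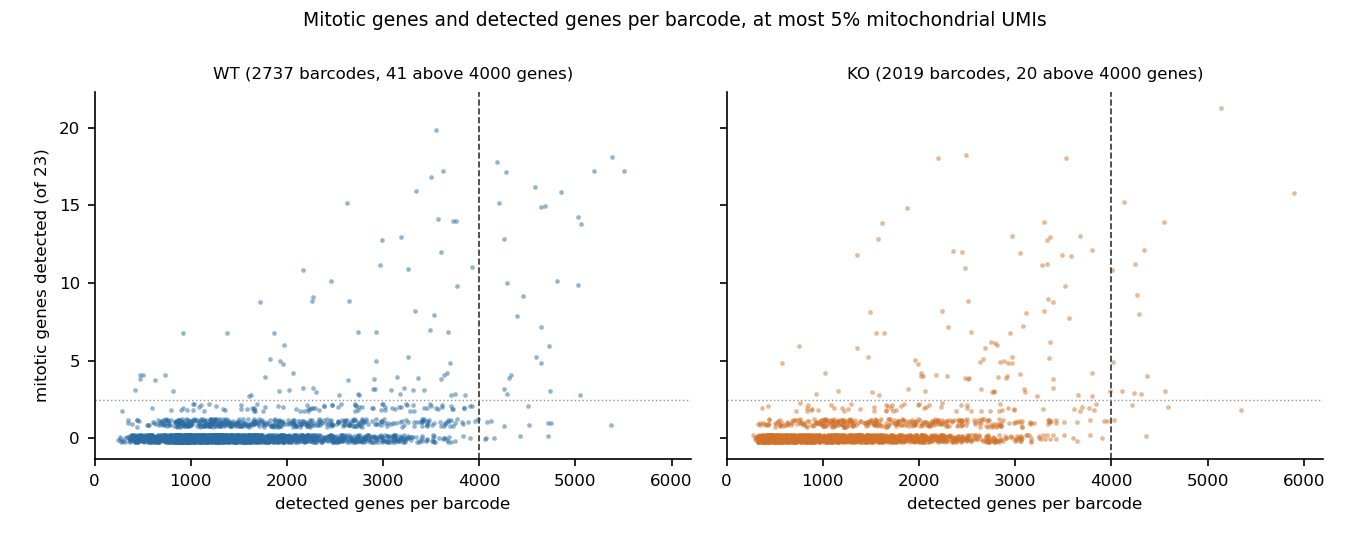
Number of the 23 mitotic genes detected in each barcode with at most 5% mitochondrial UMIs, shifted slightly to part the points, against its number of detected genes, in WT (left) and KO (right). The dashed line marks the limit of 4000 detected genes, with 41 WT and 20 KO barcodes to its right, and barcodes above the dotted line have at least 3 mitotic genes.

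Birc5 stood apart from the other genes in 1 respect, which was noticed after its values were seen. Among cells with none of the other 22 mitotic genes it had 9 UMIs in 9 of 2093 WT cells (0.430%) and 50 UMIs in 38 of 1571 KO cells (2.42%), or 1.08 and 10.1 CPM, a log2 ratio of 3.22 (2.18 to 4.43). The next highest of 30 genes with at least 20 UMIs in such cells was Dut, which keeps uracil out of DNA, at 0.84, and the median was 0.34. Of the 38 KO cells 13 were in the Wnt11 cluster 8, 10 were monocyte-like and 8 dendritic cell-like. In cells with at least 3 other mitotic genes Birc5 differed less, at 137 CPM in WT and 176 CPM in KO (0.36, −0.04 to 0.77). Among barcodes with over 5% mitochondrial UMIs and none of the other genes, Birc5 had 10 UMIs in WT and 16 in KO (0.09, −1.14 to 1.39).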

How the data were processed

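Polyp-infiltrating cells from 5 WT and 4 KO mice were pooled by genotype, sorted for CD11b and CD11c, and made into 1 library each with the SeekOne MM microwell kit, although another label of the samples names 10x Genomics. The authors deposited raw UMI counts per gene and barcode, and the submitters' processing notes name Cell Ranger 2.1.1 and mm10. The aligner settings are not given in the sources used here. Gene lists, roles and comparisons were chosen with earlier results of these data known.

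From the deposited counts, the barcodes used were those in which 200 to 4000 genes were found and mitochondrial genes gave no more than 5% of UMIs. Counts were normalised per cell to 10000 and log-transformed, 2000 variable features were chosen and the cell cycle and sex-linked genes among them were left out, which left 1955. Clusters were drawn on 20 principal components at resolution 0.9, the smallest with at least 15 clusters, in Seurat 5.3.0 (R 4.3.3). A cluster was named from at least 3 markers detected in at least 10% of its cells. Doublets were not removed. Scrublet (scanpy 1.11.5) called only 0.0742% of WT and 0.400% of KO cells, and whether its threshold suited these data was not checked. UMIs were summed over cells, and levels have exact Poisson intervals, ratios exact conditional intervals and shares Clopper-Pearson intervals, all at 95%. A count of 0 allows up to 3. Ratios carry no pseudocount, except that a gene counted as past 2-fold used 0.5 UMI and at least 50 UMIs over both libraries, and those with fewer were named without values. Any gene of the list above that minimum could be named. The calculations were tested on simulated data. TMM factors came from edgeR 4.0.16 and serve as an alternative. Cells were thinned to 1000 UMIs with a fixed seed. Promoter windows came from RefSeq. Clec7a itself is not analysed here, so the genotype labels were not checked on the targeted gene. Single genes of the other S-phase list are not reported here.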

Additional observations from a re-analysis of the deposited data

Results flagged for a closer look

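Between cell classes the 23 less abundant mitotic genes differed in direction. Their log2 ratio of KO over WT was 0.54 in macrophage-like cells and 1.16 in dendritic cell-like cells. It was −0.33 in T or NK cell-like cells, in which 8 cells of each library held most of these UMIs. The 18 less abundant S-phase genes were likewise at 1.03 in the Clec9a cluster 9 and at −0.76 in the Wnt11 cluster 8, for which the counting intervals do not overlap. In the cells with fewer than 3 of the 23 mitotic genes they were at 0.29 (−0.17 to 0.76) and −0.17 (−0.62 to 0.28), with intervals that overlap. With 1 library per genotype these differences were not tested.

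Barcodes that the comparisons left out held these transcripts too. Barcodes with over 4000 detected genes and at most 5% mitochondrial UMIs had 932 CPM of the mitotic genes over both libraries, and those with over 5% mitochondrial UMIs and at most 4000 genes had 317 CPM, against 161 CPM (156 to 167) in kept cells.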

How the results depend on the processing

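With 1 library per genotype the intervals cover counting error only, nothing could be left out per replicate, and depth limits single genes, since 6 of the 46 had fewer than 50 UMIs. No paired analysis was possible because each genotype has 1 library, so that a block would leave nothing to compare. The filters on cells moved the most values, with 27 moved and 4 changed in sign of 82 under no filter, and 21 and 2 without the upper limit on genes. Removing that limit, removing the 5% of barcodes with the highest Scrublet scores, removing shared barcodes, and leaving out the 5 most abundant genes were chosen after seeing the data. Of 966 values under alternatives, 812 moved by less than the counting interval (or, for counts, by under 1.5 times), 143 moved and 11 changed sign. A change of sign was counted only for reported values whose counting interval kept to 1 sign. With Scrublet doublets, the highest scores or shared barcodes removed, or with 30 components, every value stayed within that limit. Scrublet called 2 WT and 8 KO cells and its threshold was not checked here, so its 2 removals are no check on doublets. For each change the cause was not tested. The next sentences give log2 ratios of KO over WT in the order S-phase, mitotic, 18 S-phase and 23 mitotic genes.

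Over all cells these were 0.25, 0.33, 0.66 and 0.74. They were 0.13, 0.22, 0.32 and 0.43 without the upper limit on genes, 0.14, 0.24, 0.34 and 0.46 with 500 to 6000 genes, 0.11, 0.18, 0.31 and 0.30 with no filter, 0.18 for the S-phase genes and 0.52 and 0.575 for the shorter lists with 10% mitochondrial UMIs, 0.16, 0.17, 0.51 and 0.51 as a mean over cells, and 0.080, 0.16, 0.49 and 0.58 with TMM. In macrophage-like cells (0.25, 0.15, 0.48 and 0.54) the sign changed. They were −0.052, 0.018, −0.10 and 0.12 without the upper limit, −0.040, 0.042, −0.076 and 0.15 with 500 to 6000 genes, −0.073, −0.065, −0.10 and −0.034 with no filter, and 0.043, −0.078, 0.10 and 0.043 with 10% mitochondrial UMIs. A mean over cells gave 0.75 for the 23 mitotic genes and a resolution higher by 0.4 gave 0.33 for the S-phase genes. In dendritic cell-like cells (0.51, 0.54, 0.80 and 1.16) the first 3 were 0.30, 0.36 and 0.47 without the upper limit, 0.30, 0.36 and 0.47 with 500 to 6000 genes, 0.29, 0.36 and 0.50 with 10 components, 0.31, 0.37 and 0.52 with all variable features, 0.30, 0.37 and 0.51 with reciprocal PCA, 0.32, 0.38 and 0.53 at the higher and 0.31, 0.38 and 0.53 at the lower resolution. All 4 were 0.34, 0.33, 0.48 and 0.64 with no filter and 0.31, 0.33, 0.46 and 0.62 with 10% mitochondrial UMIs, and a mean over cells gave 0.29, 0.52 and 0.72 for the last 3. In T or NK cell-like cells a mean over cells gave −0.59 for the mitotic genes. With only the most abundant gene of each list left out, the S-phase ratio was 0.66 over all cells, 0.58 in neutrophil-like, 0.35 in monocyte-like, 0.48 in macrophage-like and 0.80 in dendritic cell-like cells. Of single genes Hmgb2 alone changed sign by the rule above, as a mean over cells (−0.068). Pcna, which that rule does not count, went from 0.037 to −0.039 with no filter and to −0.13 with TMM.

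The number of genes at least 2-fold higher in KO over all cells, in macrophage-like and in dendritic cell-like cells (6, 2 and 5) was 1 and 0 in the first 2 without the upper limit and with 500 to 6000 genes, 0, 1 and 3 with no filter, 3, 0 and 3 with 10% mitochondrial UMIs, and 10, 6 and 9 with at least 20 UMIs. It was 1 and 3 in the latter 2 with at least 100 UMIs, and 3 in dendritic cell-like cells with a pseudocount of 5, 10 components, all variable features, reciprocal PCA or the lower resolution. The share of all genes past the fold was not computed under these settings. The log2 ratio of the share of cells was 0.51 for S-phase and 0.58 for mitotic genes over all cells and 0.94 for either of the shorter lists. Not thinned, it was 0.10, −0.13 and 0.26, and −0.21 for mitotic genes in macrophage-like cells, where thinning to 2000 UMIs gave −0.15 and thinning to 1000 gave 0.62. With at least 3 genes it was 0.94 for S-phase genes over all cells, 1.90 in dendritic cell-like cells, and 1.73 for either shorter list in macrophage-like cells.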

Other observations

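Mki67 was found in dendritic cell-like cells with few other mitotic transcripts. In the Fscn1 cluster 6 it was at 107 CPM in WT and 96.8 CPM in KO, about the level of the Clec9a cluster 9 (119 and 91.0 CPM), whereas Top2a was at 4.10 and 6.79 CPM in cluster 6 and at 30.4 and 69.4 CPM in cluster 9. In macrophage-like cluster 4, which had the most cells with several mitotic genes, Mki67 was at 26.0 and 25.5 CPM. Mki67 thus did not follow the other mitotic genes between these clusters.

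In neutrophil-like cells Kif23, Ccnb2 and Cdc6 were the most abundant genes after Pcna, Hmgb2 and Stmn1, with 56, 40 and 40 UMIs over both libraries. Kif23 was at 25.1 CPM in WT and 25 CPM in KO neutrophil-like cells, against 7.69 and 8.22 CPM in macrophage-like cluster 4. Ccnb2 was at 17.7 and 18.8 CPM and Cdc6 at 16.0 and 25 CPM, on 9 and 12 KO UMIs, respectively. Cenpa went the other way, with 13.1 and 14.6 CPM in neutrophil-like cells, 186 and 108 CPM in cluster 4 and 355 and 319 CPM in cluster 8. These genes were picked after their values were seen, and no test was made of them.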
